A study of Mus musculus with 160 samples.

Results

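Cytochrome P450 genes were followed in RNA-seq counts from the distal colon of 160 mice. Members were the protein-coding genes whose mouse symbol begins with Cyp and a digit, apart from a pair of genes of family 26 that the definition leaves out, with a mean of at least 0.5 CPM (raw counts scaled to the file total) over all 160 libraries. Of 98 such genes in the files, 48 were members and 50 lay under the minimum. Members were thus chosen by their mean CPM, and their levels are given as a description. Just inside the minimum lay Cyp2b23 at 0.5435 and Cyp27b1 at 0.568 CPM, and just outside lay Cyp4a30b at 0.4898 and Cyp46a1 at 0.4678 CPM.

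The mice belonged to 4 lines with a homozygous knockout, each with wild-type (WT) controls. The Nckap1l line had 16 knockout (KO) mice, 4 of them female, and 15 WT mice, 8 of them female, on C57BL6/J. The Dock2 line had 18 KO mice, 8 of them female, and 24 WT mice, 12 of them female, on C57BL6/J. The Gpsm3 line had 20 KO and 20 WT males on C57BL6/J, and the Dok3 line 26 KO and 21 WT males of strain 129. Colitis was induced in part of the mice of each line with dextran sulfate sodium (DSS), a sulfated sugar polymer that damages the lining of the colon, given in the water for 5 days. Per the labels, DSS was given at 3% in the Dock2 and Gpsm3 lines and at 3.5% in the Dok3 line, with no percentage for the Nckap1l line. The study's methods give a lower dose for the Nckap1l line, and for the Dok3 line a first round at the dose of the other lines, and do not tie either round to a library. The mice then drank water for 7 days in the Nckap1l line and 5 days in the others, and tissue was taken on day 12 and day 10. The labels do not tie a library to DSS or to untreated water, so treated and untreated mice were analysed together.

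P450 enzymes are heme proteins that insert an oxygen atom into their substrates with electrons from NADPH. Families 1 to 3 handle drugs, dietary compounds and other foreign molecules, the Cyp4 family oxidizes fatty acids and eicosanoids at the end of the chain, and others build or break down sterols, bile acids, vitamin D and steroid hormones. The liver holds most of them, and in the intestine the epithelium that faces the lumen is the main site of the drug-metabolizing families.

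Total counts ran from 4344988 to 19993833 per library, with a median of 15989625. In the knocked-out genes the KO mean was 47.6% of the WT mean for Nckap1l, 63.9% for Dock2, 23.2% for Gpsm3 and 70.4% for Dok3, and KO and WT ranges overlapped in every line. Transcripts of skin (8 keratinocyte genes such as Krt5 and Krt14) stood high in 32 of the 160 libraries, with a mean log2 CPM of 6.28 to 10.0 against -1.18 to 2.52 in the other 128. These libraries were 15 of 31 in the Nckap1l line, 5 of 42 in Dock2, 3 of 40 in Gpsm3 and 9 of 47 in Dok3. In 5 Dok3 libraries the sex-linked transcripts did not match the male label. Epithelial genes such as Epcam and Vil1 were high in all libraries, with a list mean of 7.50 to 10.0 on the log2 CPM scale.

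Levels were compared between members per length, as mean CPM per kilobase of exon over all libraries. Cyp2c55, an arachidonic and linoleic acid oxidizing enzyme of the Cyp2c cluster on chromosome 19, was the most abundant at 173 CPM per kb and made up 31.8% of the summed level of all 48 members. Cyp2d34 followed at 64.6, Cyp2c68 at 41.8, Cyp51 at 33.4 and Cyp3a13 at 33.1 CPM per kb. Together these 5 held 63.5% of the summed level. Cyp51 is the lanosterol demethylase of cholesterol synthesis, and Cyp3a13 belongs to the drug-oxidizing Cyp3a family. The next 5 were Cyp2s1 at 18.2, Cyp2d10 at 16.5, Cyp27a1, the mitochondrial sterol hydroxylase of bile acid synthesis, at 16.3, Cyp4f16 at 13.4 and Cyp4f40 at 12.96 CPM per kb, and the 20 most abundant held 93.2%.

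**Figure D1:**
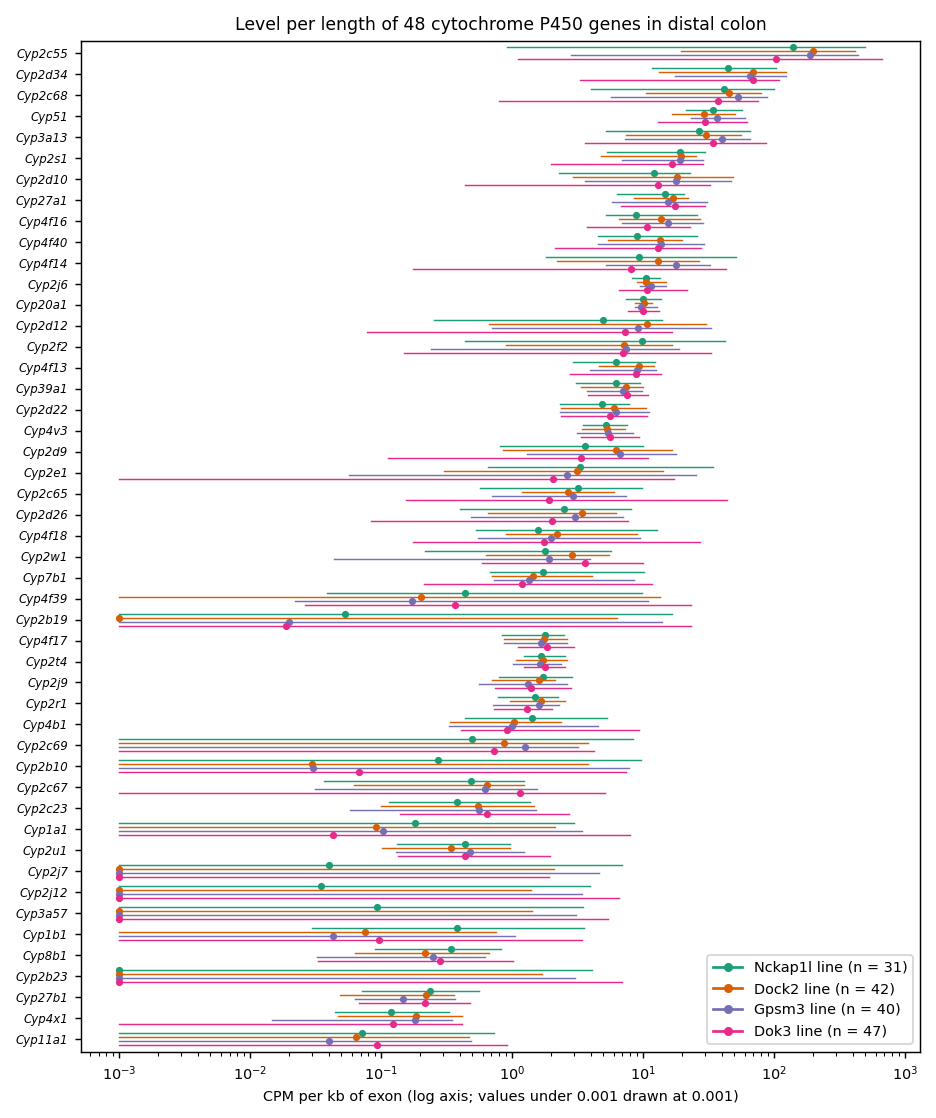
Level of each of the 48 members in each line, as CPM per kilobase of exon on a log axis; points are medians over the libraries of a line and bars run from the lowest to the highest library. The order follows the mean level per length from Cyp2c55 at 173 down to Cyp11a1, and medians of the 4 lines lie close together for most members while the ranges within a line are wide.

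The spread within a line was large for the most abundant genes. Cyp2c55 ran from 1.82 to 987 CPM in the Nckap1l line with a median of 280.8. It ran from 39.4 to 840 in the Dock2 line (median 398), from 5.62 to 883 in the Gpsm3 line (median 377) and from 2.23 to 1344.8 in the Dok3 line (median 207). All 4 ranges overlapped, and the highest library of all was KO replicate 09 of the Dok3 line. Cyp51 varied far less, from 57.5 to 277.7 CPM over all libraries. Cyp20a1, an orphan P450 with no settled substrate, was steadier still, with 19.8 to 29.3 CPM in the Gpsm3 line and 17.6 to 30.2 CPM in the Dok3 line.

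Promoters, here the 250 bases before the annotated start, were taken from RefSeq on GRCm38.p6, where 38 of the 48 members were listed. A pair of members that fell with inflammation, one that rose and one that followed skin transcripts are printed, chosen after their values were seen, so that the sequence stands beside the values given for each. Capitals mark the letters searched, and the strand is that of the gene. Cyp2c55 (chr19:39006769-39007018, plus strand, TATAAA in capitals) is the most abundant member, Cyp3a13 (chr5:137921620-137921869, minus strand, TGANTCA in capitals) fell with slopes between -0.30 and -0.27, Cyp4f18 (chr8:72009627-72009876, minus strand, GAGGAA in capitals, on the other strand) had the highest mean slope of the 35 members tested in all 4 lines, and Cyp1a1 (chr9:57697363-57697612, plus strand, GCGTG and TATAAA in capitals) was a skin-associated member.
Cyp2c55: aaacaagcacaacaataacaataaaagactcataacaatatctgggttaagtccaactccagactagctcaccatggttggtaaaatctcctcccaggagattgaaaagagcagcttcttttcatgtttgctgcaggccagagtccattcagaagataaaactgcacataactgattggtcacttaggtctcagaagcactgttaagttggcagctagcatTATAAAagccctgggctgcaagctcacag
Cyp3a13: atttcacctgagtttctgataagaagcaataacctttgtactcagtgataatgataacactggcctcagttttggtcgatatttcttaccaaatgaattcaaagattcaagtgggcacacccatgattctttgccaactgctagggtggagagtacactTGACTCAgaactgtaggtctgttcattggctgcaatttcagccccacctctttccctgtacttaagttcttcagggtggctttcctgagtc
Cyp4f18: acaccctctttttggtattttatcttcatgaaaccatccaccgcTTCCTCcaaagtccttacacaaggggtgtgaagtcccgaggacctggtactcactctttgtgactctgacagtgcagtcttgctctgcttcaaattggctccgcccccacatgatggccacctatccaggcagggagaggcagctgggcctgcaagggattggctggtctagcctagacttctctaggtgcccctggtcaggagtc
Cyp1a1: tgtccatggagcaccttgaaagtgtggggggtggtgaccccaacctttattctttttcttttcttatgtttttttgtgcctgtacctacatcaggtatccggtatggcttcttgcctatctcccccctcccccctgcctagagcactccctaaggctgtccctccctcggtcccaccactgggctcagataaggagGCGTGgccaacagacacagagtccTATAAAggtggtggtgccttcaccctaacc
Both strands were searched for TATAAA (the TATA box), GCGTG (the core letters bound by the aryl hydrocarbon receptor), TGANTCA (the AP-1 letters) and GAGGAA (the letters of an ETS site of the PU.1 kind), which do not overlap one another in these 4 sequences. TATAAA stood in 9 of the 38 member promoters (23.7%) and in 12.4% of 32851 promoters of the same length. GCGTG stood in 13 members (34.2%, against 28.2%), TGANTCA in 3 (7.89%, against 6.75%) and GAGGAA in 7 (18.4%, against 23.3%). A match is a run of letters and was not tested as a site.

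The first question was whether the knockouts differ from their WT controls. No member was called in any line by the quasi-likelihood test of edgeR with Benjamini-Hochberg adjustment over all genes tested (adjusted p under 0.05). Members tested were 48 in the Nckap1l line, 38 in Dock2, 36 in Gpsm3 and 37 in Dok3. Of all genes tested, the share called was 0% in Nckap1l, 0.034% in Dock2, 0.00569% in Gpsm3 and 0% in Dok3. At an unadjusted p under 0.05 there were 1, 2, 0 and 1 members, beside 807 of 17947, 900 of 17648, 854 of 17560 and 386 of 17612 genes. DESeq2 and limma-voom also called 0 members. At an unadjusted p under 0.05 DESeq2 had 1, 3, 0 and 1 members, beside 826 of 16527, 914 of 17365, 883 of 17204 and 395 of 17197 genes. With limma-voom there were 1, 1, 0 and 0 members, beside 708, 718, 511 and 308 genes.

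In the Nckap1l line the smallest p belonged to Cyp2e1, which oxidizes ethanol and other small molecules. Its level ran from 1.495 to 74.4 CPM (median 14.1) in 16 KO libraries and from 1.42 to 15.3 (median 5.21) in 15 WT libraries, ranges that overlapped, and the difference was 1.59 on the log2 scale (SE 0.496, adjusted p = 0.83 by edgeR). In the Dock2 line it was Cyp2c65, a colon enzyme of the Cyp2c cluster, with 2.30 to 7.52 CPM (median 4.91) in 18 KO and 2.47 to 11.6 (median 6.06) in 24 WT libraries and a log2 difference of -0.36 (SE 0.161, adjusted p = 0.93 by edgeR). In the Gpsm3 line it was Cyp39a1, an oxysterol hydroxylase, with 11.4 to 27.2 CPM (median 20.8) in KO and 12.9 to 30.2 (median 23.9) in WT libraries, a log2 difference of -0.19 (SE 0.0958, adjusted p = 0.936 by edgeR). In the Dok3 line it was Cyp4f14, the leukotriene B4 hydroxylase of the chromosome 17 cluster, with 0.422 to 103.8 CPM (median 25.9) in KO and 3.91 to 47.6 (median 15.1) in WT libraries, a log2 difference of 0.74 (SE 0.355, adjusted p = 0.9996 by edgeR). In each of these 4 genes the difference was within the spread of the libraries. Cyp2e1 is also a liver gene. In the one library with high hepatocyte transcripts, WT replicate 10 of the Gpsm3 line, it stood at 31.9 CPM. In the other libraries of that group it ran from 0.272 to 33.1 CPM, with a median of 4.78.

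Each line held a wide range of inflammation, which was read from 20 genes of acute inflammation that include the neutrophil genes S100a8 and S100a9 and the cytokines Il1b and Il6. The score was their mean log2 CPM, centred within the line, and it spanned 7.65 units in the Nckap1l line, 7.53 in Dock2, 7.06 in Gpsm3 and 9.48 in Dok3. Among gaps with at least 6 libraries on either side, none was over 15% of that range in any line, and the score was used as a continuous measure and no groups were cut from it. A slope below is the log2 change in counts per 1 unit of score, with genotype, and sex where both were present, in the same fit.

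P450 genes fell as the score rose far more often than they rose. In the Nckap1l line 25 of 48 members tested fell and 5 rose, where 24.6% of all genes fell and 23.2% rose. In the Dock2 line 23 of 38 fell and 4 rose (26.9% and 28.3% of all genes). In the Gpsm3 line 25 of 36 fell and 3 rose (26.2% and 27.9%), and in the Dok3 line 24 of 37 fell and 5 rose (30.6% and 32.9%). The median slope of the members was -0.06, -0.13, -0.15 and -0.14 in the same order, beside a median over all genes tested of between -0.00105 and 0.00148. Of the 35 members tested in all 4 lines, 20 fell in all 4 and 2 rose in all 4, and in this fit of all libraries no member was called in opposite directions in different lines. The share of all genes called alike in all 4 lines was not counted, so counts over 4 lines, here and below, are a description. In bulk tissue, fewer cells of a type and less RNA per cell cannot be told apart.

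**Figure D2:**
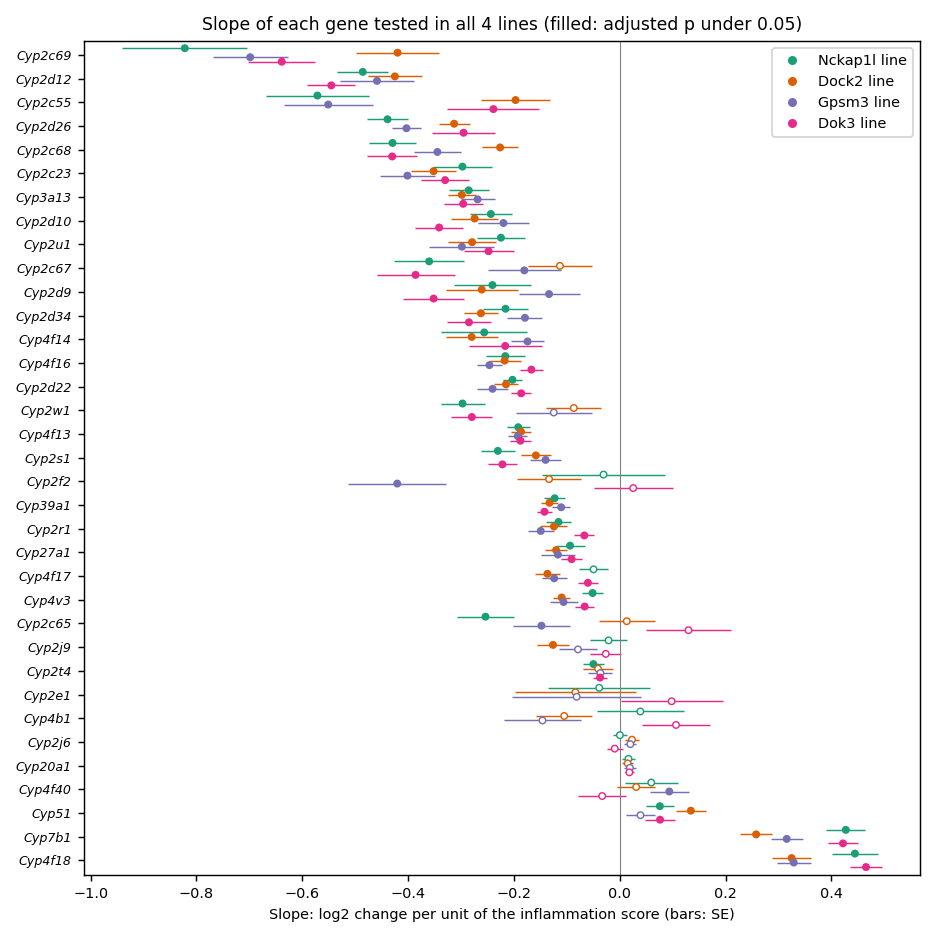
Slope of each of the 35 members tested in all 4 lines, as log2 change per unit of the inflammation score; bars are standard errors and filled points have an adjusted p under 0.05. Members from Cyp2c69 down to Cyp2t4 lie to the left of 0 in every line, apart from Cyp2f2 and Cyp2c65, and Cyp4f18 and Cyp7b1 lie apart on the right.

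The Cyp2c genes, which oxidize drugs and arachidonic acid, held the steepest mean slope over the lines, that of Cyp2c69 at -0.64. Cyp2c69 had slopes of -0.82, -0.42, -0.70 and -0.64 in the Nckap1l, Dock2, Gpsm3 and Dok3 lines (SE 0.118, 0.0787, 0.071 and 0.0636), at a low level of 0 to 14.4 CPM. Cyp2c55 fell by 0.57, 0.20, 0.55 and 0.24 per unit, which over the range of the score in each line is 20.7-fold, 2.80-fold, 14.8-fold and 4.80-fold lower at the highest score (largest adjusted p = 0.015 by edgeR, in the Dok3 line). In the Dok3 line without the libraries with skin transcripts the slope of Cyp2c55 was -0.13 with an adjusted p of 0.187. Cyp2c68 had slopes of -0.43, -0.23, -0.34 and -0.43, and Cyp2c23, whose product makes epoxides of arachidonic acid, of -0.30, -0.35, -0.40 and -0.33. In all, 4 of 6 Cyp2c members fell in all 4 lines. Cyp2c69, Cyp2c67 and Cyp2c68 share 35.4%, 23.7% and 19.8% of their 100-base windows with other genes, so their reads may be split among near copies.

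The Cyp2d cluster on chromosome 15 had 6 of 6 members lower at higher scores in all 4 lines. Cyp2d enzymes hydroxylate basic drugs. Cyp2d12 ran from 0.992 to 54.4 CPM in the Nckap1l line (median 19.5), from 2.58 to 117 in Dock2 (median 41.6), from 2.72 to 128 in Gpsm3 (median 35.8) and from 0.304 to 64.6 in Dok3 (median 28.3). Its slopes of -0.49, -0.42, -0.46 and -0.55 correspond to levels 13.2-fold, 9.20-fold, 9.44-fold and 35.9-fold lower at the highest score of each line. Cyp2d26 had slopes of -0.44, -0.31, -0.40 and -0.30. The abundant Cyp2d34 had smaller slopes of -0.22, -0.26, -0.18 and -0.29, and Cyp2d10 had -0.24, -0.27, -0.22 and -0.34, with 11.7% of its windows shared with other genes.

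Across the libraries of each line, Cyp2d12 followed the score with a Pearson r of -0.903, -0.827, -0.818 and -0.922 (n = 31, 42, 40 and 47) and a Spearman rho of -0.898, -0.776, -0.691 and -0.898. The permutation p was 1e-05 for each of these, the smallest that 100000 permutations can give, with an adjusted p of 2.46e-05 for r over the 192 relations computed and of 2.91e-05 for rho. Without the 2 libraries farthest from the median score, r was -0.914, -0.714, -0.755 and -0.934. Cyp2c55 gave an r of -0.834, -0.480, -0.791 and -0.702, and in the Dock2 line its rho was -0.264 with an adjusted permutation p of 0.13, while r without the 2 farthest libraries was -0.314. The relation of Cyp2c55 in the Dock2 line rests in part on those 2 libraries.

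**Figure D3:**
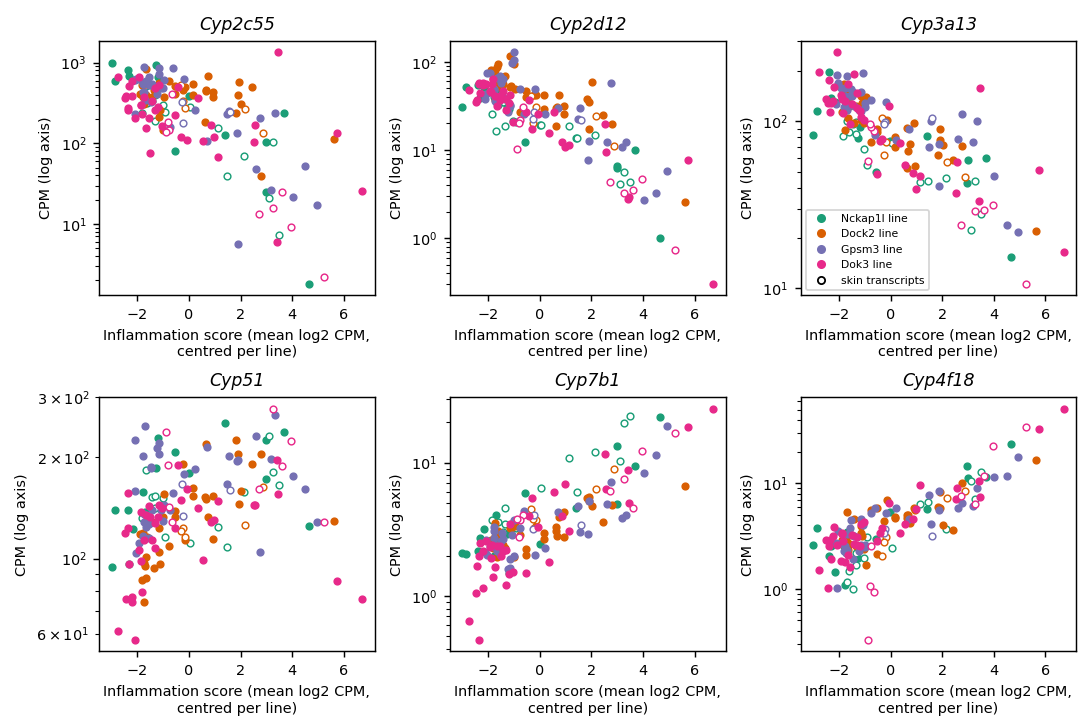
CPM (log axis) of 6 members against the inflammation score (mean log2 CPM of 20 genes, centred per line) in 160 libraries, coloured by line; hollow points are the 32 libraries with skin transcripts. Cyp2c55, Cyp2d12 and Cyp3a13 descend to the right, Cyp7b1 and Cyp4f18 climb in all 4 lines, and Cyp51 spreads widely with a weak climb.

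Cyp3a13, whose promoter is printed above, fell in every line. Its level ran from 15.4 to 196 CPM in the Nckap1l line (median 79.5), from 22.2 to 167 in Dock2 (median 90.6), from 21.6 to 194 in Gpsm3 (median 119) and from 10.7 to 258 in Dok3 (median 101). Its slopes were -0.29, -0.30, -0.27 and -0.30 (SE 0.0376, 0.0263, 0.0321 and 0.0371), with an adjusted p of 3.5e-07 or less by edgeR. Cyp2s1, an extrahepatic enzyme of epithelia, also fell in all 4 lines with slopes of -0.23, -0.16, -0.14 and -0.22.

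Of the Cyp4f genes on chromosome 17, which omega-hydroxylate leukotrienes and fatty acids, 3 of 6 fell in all 4 lines. Cyp4f16 had slopes of -0.22, -0.22, -0.25 and -0.17, and Cyp4f14 of -0.26, -0.28, -0.17 and -0.22. Over all libraries Cyp4f40 passed the test only in the Gpsm3 line, with a slope of 0.09 (SE 0.0371, adjusted p = 0.031 by edgeR). Its slopes were 0.06, 0.03 and -0.03 in the Nckap1l, Dock2 and Dok3 lines. Without the libraries with skin transcripts it passed in the Dock2 line too (0.07, adjusted p = 0.012 by edgeR). Whether these slopes differ between lines was tested for the Dok3 line alone.

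Cyp4f18, which lies apart from that cluster on chromosome 8, went the other way. Its product hydroxylates leukotriene B4 and is a known enzyme of neutrophils and other myeloid cells. It ran from 0.995 to 23.7 CPM in the Nckap1l line (median 2.94), from 1.66 to 16.7 in Dock2 (median 4.11), from 1.02 to 17.8 in Gpsm3 (median 3.72) and from 0.327 to 51.2 in Dok3 (median 3.29). Its slopes of 0.44, 0.33, 0.33 and 0.47 (SE 0.043, 0.0369, 0.0319 and 0.031) correspond to levels 10.6-fold, 5.46-fold, 5.00-fold and 21.3-fold higher at the highest score, with an adjusted p of 1.2e-09 or less by edgeR. The neutrophil genes rose with the score too, 9 of 9 tested in the Nckap1l line, 8 of 8 in Dock2, 7 of 7 in Gpsm3 and 9 of 9 in Dok3, but several of them are in the score itself. The part of these cells in the slope of Cyp4f18 was not tested. Exons of Zfp961 on the opposite strand cover 9.76% of the exon bases of Cyp4f18, and the sources used here do not say whether counting used strand.

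Cyp7b1, which hydroxylates oxysterols on the way to bile acids, rose as well. It ran from 1.49 to 22.3 CPM in the Nckap1l line (median 3.73), from 1.54 to 8.87 in Dock2 (median 3.12), from 1.58 to 18.6 in Gpsm3 (median 2.94) and from 0.466 to 25.4 in Dok3 (median 2.58). The slopes were 0.43, 0.26, 0.32 and 0.42 (SE 0.0365, 0.0307, 0.0305 and 0.0283), or 9.65-fold, 3.85-fold, 4.69-fold and 16.01-fold higher at the highest score. Fibroblast genes rose with the score as well, 7 of 7 in each line, and macrophage genes 7 of 7 in each line, and their part in the slope of Cyp7b1 was not tested.

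The other sterol, bile acid and vitamin D members were mixed. Cyp27a1 fell in all 4 lines with slopes of -0.09, -0.12, -0.12 and -0.09, Cyp39a1 with -0.12, -0.13, -0.11 and -0.14, and Cyp2r1, which starts the activation of vitamin D, with -0.12, -0.12, -0.15 and -0.07. Cyp51 rose in 3 lines, with slopes of 0.08, 0.13 and 0.08 in the Nckap1l, Dock2 and Dok3 lines (adjusted p = 0.020, 0.00011 and 0.019 by edgeR) and 0.04 in Gpsm3 (adjusted p = 0.222). Without the libraries with skin transcripts Cyp51 passed the test in the Dock2 line alone, with a slope of 0.15 (adjusted p = 0.00027 by edgeR). Its slopes were then 0.08 in Nckap1l (adjusted p = 0.161) and 0.04 in Dok3 (adjusted p = 0.232). Cyp8b1, a bile acid enzyme, was tested in the Nckap1l line alone, where its slope was 0.22 (SE 0.0362, adjusted p = 1.4e-05 by edgeR) at a level of 0.176 to 1.62 CPM. Cyp27b1, which completes the activation of vitamin D, had slopes of -0.07 and -0.03 in the Nckap1l and Dock2 lines (adjusted p = 0.202 and 0.68 by edgeR), and Cyp11a1, the side-chain cleavage enzyme of steroid synthesis, one of 0.02 in the Nckap1l line (adjusted p = 0.916).

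The remaining members fell or did not pass the test, apart from the skin-associated Cyp1b1 and Cyp4f39 described below. Cyp4f13 had slopes of -0.19 in each of the 4 lines, and Cyp2d22 of -0.20, -0.21, -0.24 and -0.19. Cyp2u1, a fatty acid hydroxylase, had slopes of -0.22, -0.28, -0.30 and -0.25, Cyp2d9 of -0.24, -0.26, -0.13 and -0.35, and Cyp4v3, a fatty acid hydroxylase of wide expression, of -0.05, -0.11, -0.11 and -0.07. A further 8 members fell in 1 to 3 lines and passed the test upward in none in the fit of all libraries. These were Cyp2c67, Cyp4f17 and Cyp4x1 in 3 lines, Cyp2c65, Cyp2w1 and Cyp2t4 in 2, and Cyp2f2 and Cyp2j9 in 1. Cyp4x1 was tested in 3 lines, with slopes of -0.23 in Nckap1l, -0.20 in Dock2 and -0.29 in Gpsm3.

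Some abundant members did not pass the test in any line in the fit of all libraries. Cyp20a1 had slopes of 0.01 to 0.02, and Cyp2j6, an epoxygenase of arachidonic acid, had slopes from -0.01 to 0.02, at adjusted p of 0.077 or more by edgeR. Without the libraries with skin transcripts Cyp20a1 passed in the Dok3 line (slope 0.03, adjusted p = 0.0050 by edgeR). Over all libraries, 13 members were called in no line where they were tested. Of these, 9 were tested in 1 or 2 lines, since most libraries of the others held too few counts, and a change there was not detectable at this depth.

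Genes of the epithelium were measured beside the P450 genes. Of 10 general epithelial genes, 7 fell with the score in the Nckap1l line, 8 in Dok3 and 1 each in Dock2 and Gpsm3, where 2 and 1 rose. Of 10 genes of the surface colonocyte, 7, 7, 6 and 7 fell in the Nckap1l, Dock2, Gpsm3 and Dok3 lines, among them Aqp8 and Car4. With the mean of the epithelial genes as a further term, Cyp2d12 kept slopes of -0.43, -0.42, -0.46 and -0.47 and Cyp3a13 of -0.23, -0.30, -0.28 and -0.24. Cyp2c55 in the Dok3 line then had a slope of -0.17 with an adjusted p of 0.075 by edgeR. No list for the surface cells was used as a term, so their part in the slopes was not tested.

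Genes that work with P450 enzymes were counted in the same fits, each list in the order Nckap1l, Dock2, Gpsm3 and Dok3. Of 13 nuclear and xenobiotic receptors, 7, 8, 9 and 7 fell and 2, 3, 1 and 2 rose. Vdr, the vitamin D receptor, had slopes of -0.29, -0.27, -0.28 and -0.33, and Nr1i3 (CAR), which drives Cyp2b and Cyp2c genes in liver, of -0.30, -0.27, -0.32 and -0.21, while Ppara, the fatty acid receptor, had -0.22, -0.30, -0.27 and -0.14. Of 18 conjugating enzymes tested, 12, 9, 12 and 11 fell and 1, 3, 1 and 2 rose, led by Sult1c2 (-0.40, -0.30, -0.40 and -0.32), Ugt2b34 and Sult1a1.

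The redox partners, which pass electrons to P450 enzymes, were mixed, with 2, 3, 3 and 3 of 7 lower and 0, 3, 1 and 3 higher. Fdxr and Fdx1, which serve the mitochondrial P450 enzymes, fell in all 4 lines with slopes of -0.09, -0.12, -0.08 and -0.08 and of -0.06, -0.04, -0.03 and -0.06, and Fdx1l passed the test upward in the Dock2, Gpsm3 and Dok3 lines. Of the epoxide hydrolases, which open the epoxides that Cyp2c and Cyp2j enzymes make, 2 of 4, 2 of 4, 3 of 3 and 2 of 4 fell and 0, 1, 0 and 1 rose, and Ephx2 fell in all 4 lines (-0.10, -0.11, -0.06 and -0.15). Ephx4 fell in 3 lines and Ephx1 in 2.

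In cholesterol synthesis, the pathway of Cyp51, 6, 12, 3 and 9 of 16 genes rose and 0, 0, 2 and 3 fell. Fdps had slopes of 0.13, 0.22, 0.13 and 0.11 and Mvd of 0.10, 0.15, 0.10 and 0.09, whereas Dhcr7 fell in the Gpsm3 and Dok3 lines. Outside the P450 family, the aryl hydrocarbon receptor targets gave Tiparp, which rose in all 4 lines (0.16, 0.15, 0.09 and 0.22), Ahrr, which fell in the Gpsm3 and Dok3 lines, and Nqo1, which fell in Nckap1l and rose in Dock2. In this list 1, 2, 1 and 1 of 4 genes rose and 1, 0, 1 and 1 fell.

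A set of members followed the skin transcripts. These 12 were picked after their values were seen, as those with the largest difference between libraries with and without skin transcripts, and the difference is a description. Without skin transcripts Cyp2j12, Cyp2j7 and Cyp2b23 reached at most 0.123, 0.0852 and 0.0715 CPM. They thus met the minimum mean of 0.5 CPM only through the libraries with skin transcripts, and their difference was fixed by that choice. Whether others of the 12 met it without those libraries was not counted. Cyp2b19, the arachidonic acid epoxygenase of keratinocytes, ran from 0.125 to 97.4 CPM (median 35.1) in the 32 libraries with skin transcripts and from 0 to 0.580 (median 0.0592) in the 128 without. Cyp4f39, the omega-hydroxylase that epidermal acylceramide needs, had medians of 20.6 and 0.511 CPM, and Cyp2b10, a drug-metabolizing enzyme, 8.88 and 0.0637. Cyp2j12, Cyp2j7, Cyp3a57 and Cyp2b23 had medians of 3.71, 2.75, 3.37 and 1.63 CPM with and 0 without skin transcripts, and they were listed at 0 in 116, 122, 99 and 124 of the 128. In none of the 12 did the ranges lie entirely apart.

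The family 1 enzymes, textbook targets of the aryl hydrocarbon receptor, were in this set. Cyp1a1 had medians of 5.54 CPM with and 0.196 without skin transcripts, and Cyp1b1 of 6.22 and 0.384. The promoter of Cyp1a1 printed above carries both GCGTG and TATAAA. Cyp11a1, at 1.48 and 0.208, Cyp2f2, a naphthalene oxidase known from lung, at 33.2 and 13.5, and Cyp4b1, at 6.72 and 2.17, were shared between both kinds of library. Of these 12 members, 8 were tested for a slope in the Nckap1l line alone, where 15 of 31 libraries held skin transcripts. Genes of striated muscle also stood higher in most of these libraries, with a median list mean of 6.64 on the log2 CPM scale against -0.12.

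**Figure D4:**
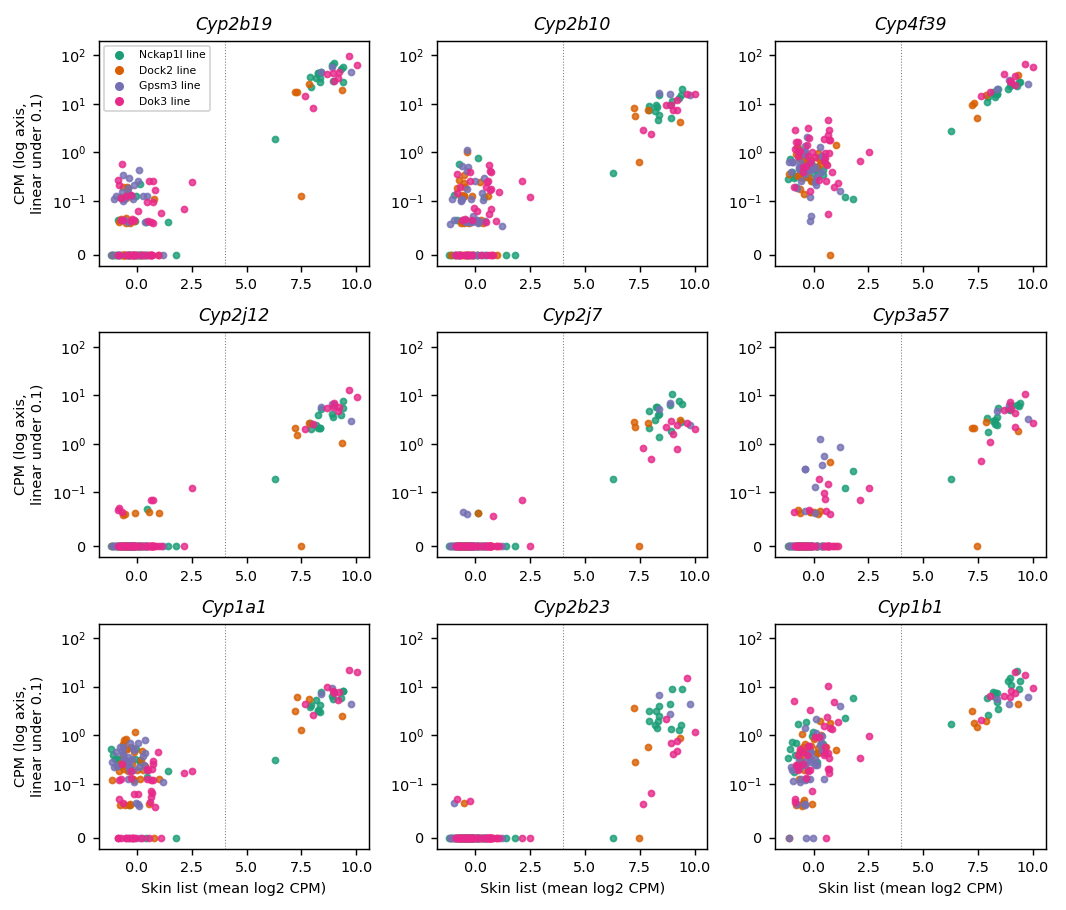
CPM (log axis, linear under 0.1) of 9 members against the mean log2 CPM of 8 skin genes in 160 libraries, coloured by line; the dotted line at 4 divides the 128 libraries without from the 32 with skin transcripts. Cyp2b19 rises from a median of 0.0592 to 35.1 CPM across that line, and Cyp2j12, Cyp2j7 and Cyp2b23 sit at 0 in most libraries to the left.

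Counts of members that fell with the score stayed near those above without these libraries. In their absence, 24 of 38 members tested fell and 4 rose in the Nckap1l line, 26 of 38 and 4 in Dock2, 27 of 36 and 3 in Gpsm3, and 24 of 36 and 4 in Dok3. Among all genes tested, 3516 of 17547, 4853 of 17525, 5143 of 17528 and 4757 of 17597 fell in the same order. Those that rose were 3623, 5159, 4967 and 5207. In that setting 19 members fell in all 4 lines, 16 of them among the 20 named by the fit of all libraries, and Cyp4f18 and Cyp7b1 again rose in all 4. Cyp2c55, Cyp2r1, Cyp4f14 and Cyp4v3 then missed the test in at least 1 line, with slopes that stayed below 0 in all 4, and Cyp2c67, Cyp2f2 and Cyp4f17 passed it in all 4. Cyp4b1, called in no line over all libraries, then fell in the Nckap1l, Dock2 and Gpsm3 lines. Its slopes there were -0.14, -0.16 and -0.21 (adjusted p = 0.010, 0.0012 and 5.0e-05 by edgeR), beside 0.06 in Dok3 (adjusted p = 0.311). Cyp2c65 was then called in opposite directions, with slopes of -0.25 in the Nckap1l line (adjusted p = 0.028 by edgeR), -0.16 in Gpsm3 (adjusted p = 0.0058) and 0.23 in Dok3 (adjusted p = 0.019). That fit held KO replicate 09 of the Dok3 line, and with all Dok3 libraries but that one the slope was -0.14 (adjusted p = 0.012), against 0.13 (adjusted p = 0.15) over all of them. Cyp1b1 rose with the score in the Nckap1l line (slope 0.34, adjusted p = 0.026 by edgeR) and in Dok3 (0.61, adjusted p = 1.6e-07), and in the Nckap1l line without these libraries its slope was 0.45 (adjusted p = 0.0016). In the Dok3 line Cyp1b1 passed the filter on low counts only with these libraries, so its slope there could not be tested without them. Cyp4f39 rose in the Dok3 line with a slope of 0.40 (adjusted p = 0.016) and turned to -0.43 (adjusted p = 1.2e-05) without them. In the Dock2 line its slope of 0.77 (adjusted p = 0.0025) became 0.00341 (adjusted p = 0.976) without them.

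Strain was the next comparison. The Dok3 line is the only one of strain 129, and it differs from the others in DSS dose and in its run of sample numbers too, so strain, line, dose and sample run cannot be told apart. Among KO males the knocked-out gene goes with strain as well. In WT males (21 Dok3 mice against 39 of the C57BL6/J lines) 7 of 48 members tested passed the test, where 16.1% of all genes did. In KO males (26 against 42), libraries that the first contrast does not use, 4 of 46 passed, where 14.4% of all genes did. Neither share stood above that of all genes. In WT males it did with the score as a covariate (29.2% of members, 22.3% of all genes) and against the Gpsm3 line alone (35.4% and 27.2%). It also did with DESeq2 (20.8% and 17.4%), with no filter on low counts (14.6% and 10.8%) and without the libraries with skin transcripts (15% and 13.3%). Without the sex-mismatched libraries it was 18.8% against 16.7%. With limma-voom it was 10.4% against 14.6%, and without the library of lowest total 14.6% against 16.1%. In KO males it stood above only with the score (21.7% and 19.5%).

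**Figure D5:**
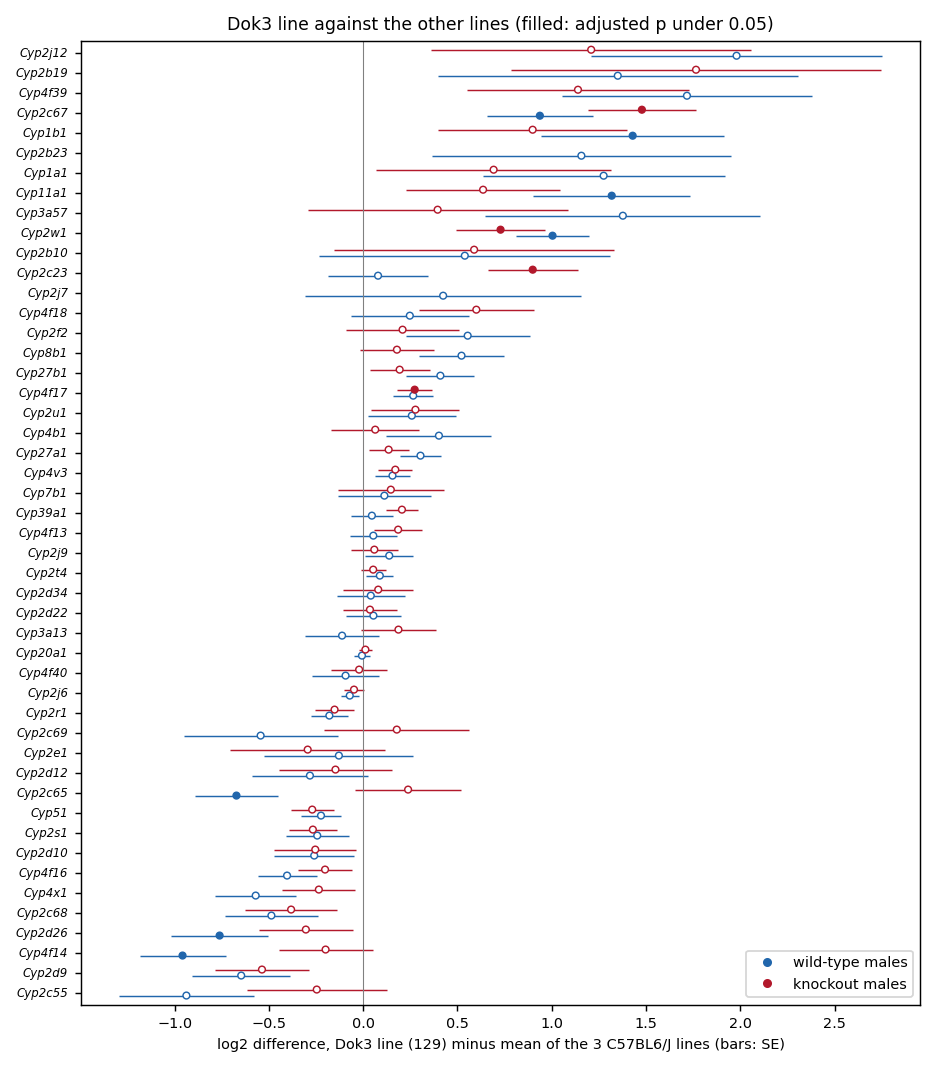
Log2 difference between males of the Dok3 line (strain 129) and the mean of the 3 C57BL6/J lines for each member, in wild-type (blue) and knockout (red) mice; bars are standard errors and filled points have an adjusted p under 0.05. Cyp2c67 and Cyp2w1 are filled in both colours, at 0.94 and 1.48 and at 1.00 and 0.73.

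Cyp2c67 and Cyp2w1 were higher in the Dok3 line in both contrasts. Cyp2w1 is an orphan enzyme better known from fetal gut and colon tumours than from adult tissue. In WT males it ran from 1.71 to 12.4 CPM (median 5.54) in the Dok3 line, against medians of 2.28 in the Nckap1l, 3.71 in the Dock2 and 3.25 in the Gpsm3 line, and the ranges overlapped. The log2 difference was 1.00 in WT (SE 0.193, adjusted p = 0.00011 by edgeR) and 0.73 in KO males (SE 0.237, adjusted p = 0.026). Without the Dok3 libraries of mismatched sex-linked transcripts the difference in KO males was 0.49 with an adjusted p of 0.172.

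Cyp2c67 in KO males ran from 0 to 8.96 CPM (median 2.62) in the Dok3 line, against medians of 1.00 in the Nckap1l, 1.19 in the Dock2 and 0.884 in the Gpsm3 line. The log2 difference was 1.48 in KO (SE 0.288, adjusted p = 8.9e-05 by edgeR) and 0.94 in WT males (SE 0.28, adjusted p = 0.015). With limma-voom the differences were 0.86 (adjusted p = 0.111) and 0.65 (adjusted p = 0.161), and against the Gpsm3 line alone the WT difference was 0.77 (adjusted p = 0.063 by edgeR). Since 23.7% of its 100-base windows are shared with other Cyp2c genes, reads of Cyp2c67 and of its near copies cannot be fully told apart.

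Of the remaining members past the test in WT males, Cyp1b1 at 1.43 (adjusted p = 0.034 by edgeR) and Cyp11a1 at 1.32 (adjusted p = 0.022) were higher in the Dok3 line, and both are in the skin-associated set. Libraries with skin transcripts were 5 of 21 in Dok3 and 6 of 39 in the C57BL6/J WT males, and without them Cyp1b1 had a difference of 0.65 with an adjusted p of 0.35 and Cyp11a1 did not pass the filter on low counts and was not tested. Lower in the Dok3 line were Cyp4f14 at -0.96 (adjusted p = 0.0018), Cyp2d26 at -0.76 (adjusted p = 0.031) and Cyp2c65 at -0.67 (adjusted p = 0.026). Without the libraries with skin transcripts Cyp4f14 kept -0.86 (adjusted p = 0.0059), Cyp2d26 had -0.60 (adjusted p = 0.163), and Cyp2c65 stood at -0.67 as before with an adjusted p of 0.077. In that setting Cyp51 was lower in the Dok3 line, at -0.45 in WT and -0.40 in KO males (adjusted p = 0.0042 and 0.013 by edgeR). Cyp4f39 was higher, at 1.15 and 1.27 (adjusted p = 0.013 and 0.00031). Over all libraries neither passed in either contrast. In KO males Cyp2c23, at 0.90 (adjusted p = 0.0051), and Cyp4f17, at 0.27 (adjusted p = 0.038), were higher in the Dok3 line. Against the Gpsm3 line alone Cyp2c23 differed by 0.58 (adjusted p = 0.195) and Cyp4f17 by 0.29 (adjusted p = 0.088). Between the 3 C57BL6/J lines 0 of 43 members tested passed the edgeR F test, where 0.459% of all genes passed. At an unadjusted p under 0.05 there were 6 members, beside 3275 of 18747 genes.

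Slopes on the score were compared between the Dok3 line and the mean of the C57BL6/J lines in males. Of 48 members tested by edgeR, 4 differed, all toward a higher slope in the Dok3 line, where 10.4% of all genes differed. With limma-voom 2 were higher and 2 lower (11.6% of all genes). Without KO replicate 09 of the Dok3 line 3 were higher and 2 lower (13.5% of all genes). Of the 4 differences by edgeR over all libraries Cyp7b1 had the smallest, 0.12 (SE 0.0402, adjusted p = 0.044). It stayed at 0.11 without the sex-mismatched libraries (adjusted p = 0.060) and against the Gpsm3 line alone (adjusted p = 0.126). Cyp2c65 differed by 0.29 (SE 0.085, adjusted p = 0.018), and without KO replicate 09 of the Dok3 line, where it stood at 84.8 CPM, the difference was 0.019 with an adjusted p of 0.868. Cyp1a1 (0.76, SE 0.255, adjusted p = 0.041) and Cyp2f2 (0.33, SE 0.0993, adjusted p = 0.023) are in the skin-associated set, and without the libraries with skin transcripts Cyp2f2 had a difference of -0.04 and Cyp1a1 was not tested. In that setting, which held KO replicate 09 of the Dok3 line, 6 of 41 members differed (14.6%, against 6.64% of all genes), all upward. Besides Cyp2c65 and Cyp7b1 these were Cyp2c55 (0.37, adjusted p = 0.018 by edgeR), Cyp2d26 (0.18, adjusted p = 0.024), Cyp4b1 (0.22, adjusted p = 0.0052) and Cyp4f16 (0.075, adjusted p = 0.044).

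Sex was compared in the lines with both sexes, female against male. In the Dock2 line 1 of 38 members passed, where 9.75% of all genes did. In the Nckap1l line 0 of 48 passed by edgeR and by limma-voom, where 0.178% and 0.123% of all genes did. At an unadjusted p under 0.05 there were 5 members by edgeR and 13 by limma-voom, beside 2823 and 3078 of 17947 genes. The member past the test in the Dock2 line was Cyp2c67. It had 0.317 to 1.59 CPM (median 0.662) in 20 females and 0.108 to 2.14 (median 1.32) in 22 males. Its log2 difference was -0.62 (SE 0.197, adjusted p = 0.037 by edgeR), and -0.60 with an adjusted p of 0.086 by limma-voom. In the Nckap1l line its difference was -0.00472 (SE 0.404), and the smallest p was that of Cyp4f17, at 0.38 (SE 0.137, adjusted p = 0.199 by edgeR).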

How the data were processed

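RNA of the distal colon was made into libraries after ribosomal depletion with a stranded kit and sequenced in single reads of 100 bases. Per the labels, the authors aligned to mm10 using STAR and took gene counts using featureCounts of Subread, and the files they deposited hold raw counts of 39179 Ensembl genes per sample, without normalization. Tool versions and the strand setting of the counting are not given in the sources used here. Symbols and positions came from the GENCODE annotation of GRCm38, which named 96.2% of the genes and 99.67% of the counts.

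Groups are the line and genotype of the labels. The quasi-likelihood test was that of edgeR 4.0.16 (R 4.3.3) on counts scaled by TMM after filterByExpr, and p-values were adjusted by Benjamini-Hochberg over all genes tested, with a threshold of 0.05. Covariates were genotype, sex where both were present, and line in the comparisons across lines. Log2 CPM carried a prior count of 2. The fits were tested on simulated counts. Correlations used 100000 permutations, two-sided (scipy 1.17.1). Alternatives were DESeq2 1.42.0, limma-voom (limma 3.58.1), no filter, other covariates, scores, contrasts and subsets of mice. Leaving out the libraries with skin transcripts (skin list over 4 on the log2 CPM scale), those with mismatched sex-linked transcripts, that of lowest total and KO replicate 09 of the Dok3 line was chosen after seeing the data. At the depth of these libraries a gene of low level rests on few counts, and CPM of a gene at 0 has no fold.

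The members and the gene lists were chosen with earlier results of these data known. Named members were those called in a genotype or sex comparison or with its smallest p, the 6 lowest and 6 highest mean slopes, those called alike in both strain contrasts, the 10 most abundant per length, and the sterol, bile acid, vitamin D, steroid and family 1 members. Of other lists, the 3 genes with the smallest p in the Gpsm3 line were named. Members outside this rule, such as those of the skin set, were named after their values were seen. Nothing says that the labels' replicates came from separate litters or cages, so p-values measure the spread between these mice.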

Additional observations from a re-analysis of the deposited data

Results flagged for a closer look

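A test of the difference between slopes on the inflammation score, Dok3 line (strain 129) against the mean of the C57BL6/J lines in males, set 4 members apart, each with the higher slope in the Dok3 line. With limma-voom 2 members were higher and 2 lower, and by edgeR without KO replicate 09 of the Dok3 line 3 were higher and 2 lower. Cyp2c65 differed by 0.2937 log2 per unit of score (adjusted p = 0.018 by edgeR), with slopes in the fits of single lines of -0.25, 0.01, -0.15 and 0.13 in the Nckap1l, Dock2, Gpsm3 and Dok3 lines. Without the one Dok3 knockout library at 84.8 CPM, replicate 09, its difference was 0.019 (adjusted p = 0.868), so the call rests on that library. Without the libraries with skin transcripts it was 0.39 (adjusted p = 0.0032), in a fit that still held replicate 09.

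Cyp1a1 differed by 0.7581 (adjusted p = 0.041) and Cyp2f2 by 0.3301 (adjusted p = 0.023). Both are among the members with higher levels in libraries with skin transcripts, and without those libraries Cyp2f2 differed by -0.04 (adjusted p = 0.773) and Cyp1a1 had too few counts to be tested. Cyp7b1 differed by 0.1178 (adjusted p = 0.044), and by 0.14 (adjusted p = 0.0499) without the libraries with skin transcripts. Strain, line, DSS dose and sample run cannot be told apart in any of these differences. The males compared include KO mice, whose knocked-out gene differs between the lines too.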

How the results depend on the processing

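Slopes of members called in the fit of all libraries were recomputed under the alternatives. Of these values, 906 kept their direction and side of the threshold, 45 lost the call and 2 reversed. Slopes not called in that fit are outside this count. One of them, Cyp2c65 in the Dok3 line, went from 0.13 to -0.11 with limma-voom (adjusted p = 0.145). Without KO replicate 09 it was -0.14 (adjusted p = 0.012 by edgeR). The reversed slopes were those of Cyp4f39 in the Dok3 line, -0.43 without the libraries with skin transcripts and -0.006879 with limma-voom, and the difference between slopes of Cyp2f2 reversed to -0.038 without those libraries. No alternative called a member between genotypes. The count of members past the strain test in wild-type males (7) became 17 against the Gpsm3 line alone (35.4% of members, 27.2% of all genes) and 14 with the inflammation score as a covariate (29.2% and 22.3%). In knockout males (4) it became 10 with the score (21.7% and 19.5%), 7 without the libraries with skin transcripts (17.5% and 18%) and 2 without those of mismatched sex-linked transcripts (4.35% and 14.1%). Between the C57BL6/J lines 1 member of 40 passed without the libraries with skin transcripts, where 0.699% of all genes did. In the Nckap1l line 18 of 32 members tested were called on the score in the 15 wild-type mice alone, against 30 of 48 in all 31 mice (56.2% and 62.5% of members, 30.4% and 47.9% of all genes). The slope differences (4) became 1 against the Gpsm3 line alone (2.08% of members, 5.51% of all genes), 2 without the sex-mismatched libraries (4.17% and 8.43%) and 6 of 41 without the libraries with skin transcripts (14.6% and 6.64%). Female against male in the Dock2 line (1) became 0 with limma-voom, 5 with the score (13.2% of members, 10% of all genes) and 7 without the libraries with skin transcripts (18.4% and 18.3%). The causes were not tested. Without Dok3 KO replicate 09, 0 members differed by genotype, where 0 of 17531 genes did. By strain in knockout males 5 differed (10.9% of members, 15.1% of all genes) and by slope 5, 3 upward and 2 downward (10.4% and 13.5%). On the score 32 were called in the Dok3 line (86.5% and 64.8%). No paired analysis was possible because the labels give no replicate numbers that groups share. The sample numbers of 3 lines fall into runs that hold both genotypes. With the run as a term 26 members were called on the score in the Nckap1l line in place of 30 (54.2% of members, 47.6% of all genes). In Gpsm3 28 and in Dok3 29 were called, as without it (77.8% and 78.4% of members, 55.2% and 63.7% of all genes). With that term no member was called by genotype in these 3 lines.

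Limits are the mixed treatment, with DSS and untreated mice not told apart by the labels, the 32 libraries with skin transcripts, near copies among the Cyp2c genes and exons of 13 members that overlap another gene (5 on the same strand). Low members rest on few counts in libraries of 4344988 counts and up.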
